A study of Mus musculus with 9 samples.

Results

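Regulators of G protein signalling (RGS proteins) switch heterotrimeric G proteins off: they bind the active Gα subunit and speed up the hydrolysis of its GTP, which shortens the signal of G protein-coupled receptors. The family falls into subfamilies, of which R4 (small proteins made of little more than the RGS domain), R7 (proteins that pair with the G protein subunit Gβ5), R12 and RZ were measured here. In blood vessels RGS proteins limit the response to vasoconstrictors such as angiotensin II and endothelin, and in leukocytes and platelets the response to chemokines and agonists.

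The genes described here are Rgs1, Rgs2, Rgs3, Rgs4, Rgs5, Rgs16 and Rgs18 (R4), Rgs7 (R7), Rgs10 (R12) and Rgs19 (RZ). They were taken as the 10 named members of a family picked because many of its genes were higher in ob/ob than in wild-type glomeruli, so the values of ob/ob vehicle against wild type chose them and are given below as a description, without a test. They carried 21 of the 56605 non-control probes of the array and 10 of the 24154 tested genes and unnamed features. All 10 had a probe that passed the filter, which asked that some group had the probe well above background throughout. Of the 21 probes, 18 passed and 15 were well above background on all 9 arrays.

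The arrays measured total RNA of glomeruli, the capillary tufts that filter blood in the kidney, isolated with magnetic beads (Dynabeads) from male BTBR mice aged 22 weeks. The groups were BTBR ob/ob mice given enarodustat, BTBR ob/ob mice given vehicle and BTBR wild-type (WT) mice given vehicle, with 3 samples each; drug and vehicle came in the food for 18 weeks. The ob/ob mutation removes functional leptin throughout the body, in both ob/ob groups. Enarodustat blocks prolyl hydroxylases, enzymes that send hypoxia-inducible factor (HIF) to degradation when oxygen is present. The labels do not say whether a sample was 1 mouse or a pool, so the p-values measure the spread between these samples.

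Values are log2 of the Agilent processed signal minus the 75th percentile of the same array, called the relative level here: 0 is the level of a probe at that percentile. Levels of different probes are not comparable, so each gene is read across arrays only. Each gene is given by its brightest probe that passed the filter, unless another probe is named. The arrays carried 62.3% to 68.3% of probes well above background. All 12 markers each of podocytes, endothelial cells and mesangial cells with pericytes passed the filter. The podocyte markers summed to 734 to 930 in enarodustat, 847 to 1080 in ob/ob vehicle and 1212 to 1350 in WT arrays (linear signal relative to the 75th percentile), and 7 of the 12 were called lower in ob/ob vehicle than in WT (adjusted p under 0.05 by limma; 2.66% of features). WT replicate 3 stood apart in proximal tubule markers, summing to 565 against 39.5 to 207 on the other 8 arrays. Enarodustat replicate 3 was the only array on slide 2.

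The probes shown let a reader see the sequence through which a gene was read. For Rgs2, Rgs7, Rgs1 and Rgs18 it is the probe that gives the gene's main values. For Rgs10 and Rgs3 it is a further probe, while the main values come from probes at chr7:135517256-135517315 and chr4:62363993-62364052. The first 4 and that of Rgs18 come from probes through which at least 1 reading frame ran without a stop codon. Those of Rgs10 and Rgs3 join separate genomic blocks (14981 and 678 bases from end to end). For Rgs1 and Rgs18 the first 30 bases are given. Sequences are from the deposited scanner files and run 5′ to 3′ on the transcript strand, with mm9 coordinates from those files.
Rgs2, chr1:145848830-145848889, minus strand: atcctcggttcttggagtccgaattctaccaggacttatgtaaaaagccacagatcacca
Rgs7, chr1:177008321-177008380, minus strand: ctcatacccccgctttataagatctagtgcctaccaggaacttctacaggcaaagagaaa
Rgs10, chr7:135517532-135532512, minus strand: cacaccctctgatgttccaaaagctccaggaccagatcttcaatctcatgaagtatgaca
Rgs3, chr4:62361410-62362087, plus strand: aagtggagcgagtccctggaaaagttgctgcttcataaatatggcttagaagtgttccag
Rgs1, chr1:146091962-146092021, minus strand: cccttggataaccagtccaaaagtatatag
Rgs18, chr1:146600137-146600196, minus strand: tgcttgaacgatgaagatggcatactttca

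Between ob/ob vehicle and WT glomeruli, 9 of the 10 genes had a difference above 0 (52.2% of all features did), with a median log2 difference of 0.92 against 0.02 over all features. For 6 of the 10, all ob/ob vehicle arrays lay above all WT arrays, against 17.8% of features. These counts restate the choice of the genes.

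**Figure D1:**
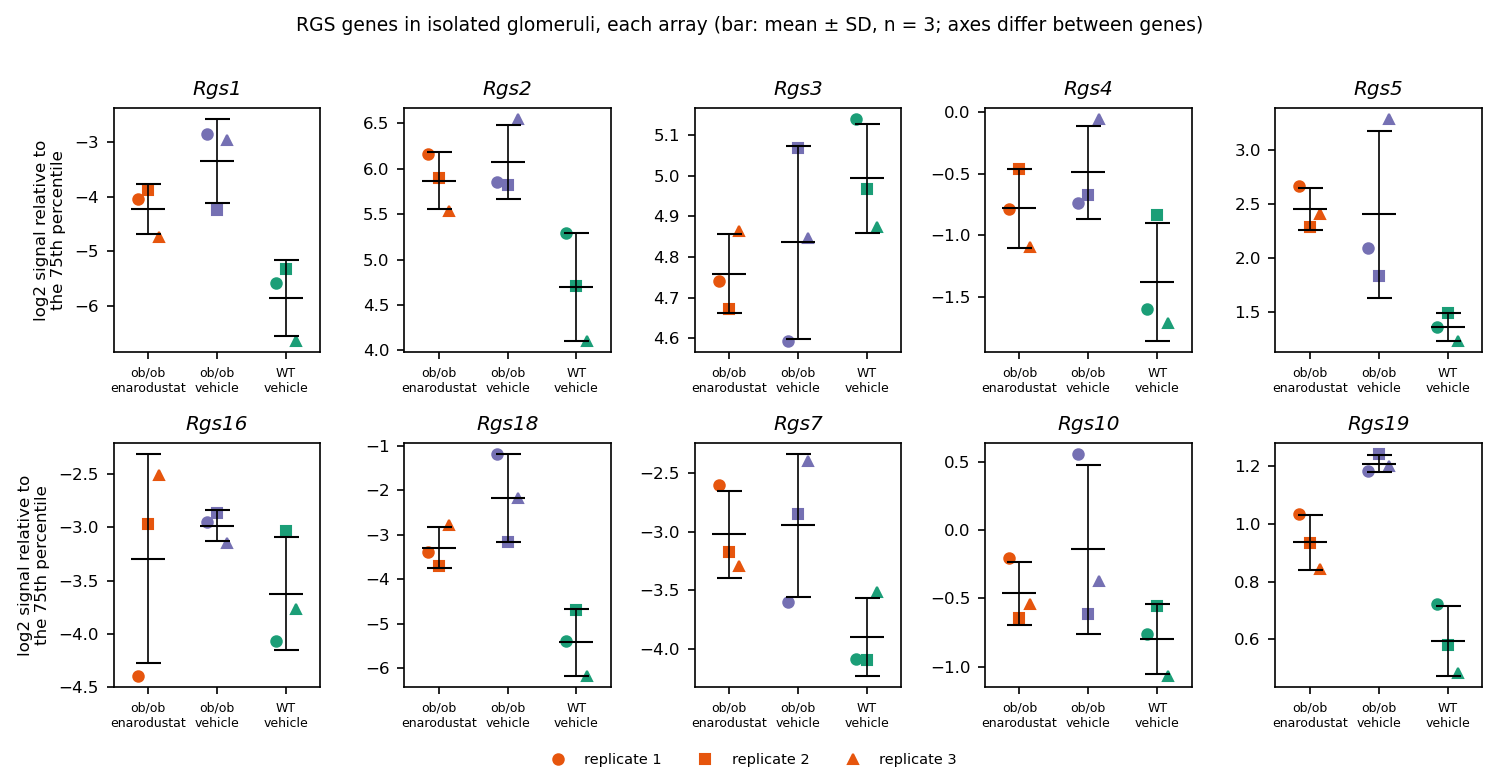
Relative level (log2 signal minus the array's 75th percentile) of the 10 RGS genes on each of the 9 arrays, by group; points are arrays, shaped by replicate number, and bars are the mean ± SD (n = 3). The ob/ob vehicle arrays lie above all WT arrays for Rgs1, Rgs2, Rgs4, Rgs5, Rgs18 and Rgs19, and the enarodustat arrays lie below all ob/ob vehicle arrays for Rgs19.

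Rgs18, an R4 member abundant in platelets and their precursors, had relative levels of -3.39, -3.70 and -2.79 in enarodustat, -1.19, -3.17 and -2.17 in ob/ob vehicle and -5.40, -4.69 and -6.18 in WT glomeruli. Both ob/ob groups lay above all WT arrays and overlapped each other. The ob/ob vehicle minus WT log2 difference was 3.24 ± 0.53 (SE), and enarodustat minus WT was 2.13 ± 0.53. Only 1 of the 3 WT arrays measured the probe well above background, so no fold is given. With normexp background correction the ob/ob vehicle minus WT difference was 1.00. The platelet markers summed to 3.20, 2.26 and 3.18 in enarodustat, 6.20, 2.36 and 6.86 in ob/ob vehicle and 2.01, 1.74 and 1.59 in WT arrays, over the 8 of 10 that passed the filter (Gp1ba and Gp6 did not). Their part in the Rgs18 values was not tested. In bulk RNA, fewer cells of a type and less RNA per cell cannot be told apart.

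Rgs1, an R4 member of B cells and other leukocytes that dampens chemokine receptor signals, had relative levels of -4.04, -3.89 and -4.75 in enarodustat, -2.85, -4.24 and -2.97 in ob/ob vehicle and -5.58, -5.32 and -6.64 in WT glomeruli. Its probe was well above background on all 6 ob/ob arrays and on no WT array, so the fold is given as a bound. The mean of the ob/ob vehicle arrays was set against the higher, on each WT array, of the probe's own signal and the lowest signal of any probe well above background. By that measure Rgs1 was at least 3.50-fold higher in ob/ob vehicle and at least 1.91-fold higher in enarodustat than in WT glomeruli. The bound holds for the processed signal as deposited. With normexp background correction the log2 difference of ob/ob vehicle from WT was 0.48, below that bound. The fitted log2 difference of the processed signals, 2.49 ± 0.46, takes the WT signals at their values although none was above background.

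Macrophage markers were, as a sum, also higher on all 6 ob/ob arrays than on all WT arrays. WT replicate 3, the lowest array for Rgs1, had the highest sum of the WT arrays. By their median log2 level these markers were instead lowest there, at -0.45, against 0.04 and 0.23 on WT replicates 1 and 2. They summed to 94.8, 95.0 and 76.2 in enarodustat, 102.5, 97.2 and 97.7 in ob/ob vehicle and 66.9, 66.4 and 75.5 in WT arrays, over the 13 of 14 that passed the filter (Cd163 did not). Itgam, with the highest mean level of the 13, weighed most in these sums. Its level was 5.87 on WT replicate 3, against 5.25 and 5.26 on WT replicates 1 and 2. Between ob/ob vehicle and WT the Itgam log2 difference was -0.17 (adjusted p = 0.630, limma). Of the 13, 8 were called higher in ob/ob vehicle than in WT and none lower (4.88% and 2.66% of features). Their median log2 difference was 1.82, against 0.02 over all features. Fcgr1, C1qa and C1qc were not well above background on every array. The lymphocyte markers summed to between 8.05 and 8.96 in enarodustat, 8.11 and 8.91 in ob/ob vehicle and 7.37 and 8.31 in WT arrays (10 of 13 genes; Cd3g, Cd79a and Klrb1c did not pass the filter). Of these 10 lymphocyte markers, 2 were called higher in ob/ob vehicle than in WT and none lower (4.88% and 2.66% of features). Their median log2 difference was 0.16. The part of these cells in the result was not tested.

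Rgs2, an R4 member selective for Gαq and needed in mice for normal blood pressure, had relative levels of 6.16, 5.90 and 5.54 in enarodustat, 5.85, 5.82 and 6.55 in ob/ob vehicle and 5.29, 4.71 and 4.10 in WT glomeruli. All 6 ob/ob arrays lay above all 3 WT arrays. The ob/ob vehicle minus WT log2 difference was 1.37 ± 0.32, a 2.59-fold difference, and 1.08 without WT replicate 3, the lowest array. Its other probe, at chr1:145849832-145849891, gave -1.39, -1.87 and -2.98 in enarodustat, -0.96, -1.33 and -1.25 in ob/ob vehicle and -1.66, -3.12 and -4.20 in WT glomeruli, a log2 difference of 1.81. On that probe the enarodustat and WT arrays overlapped.

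Rgs5, which marks pericytes and vascular smooth muscle, and its neighbour Rgs4, which acts on Gαi and Gαq, lie on opposite strands of chromosome 1, and their probes span 48.6 kb. Rgs5 had relative levels of 2.67, 2.28 and 2.41 in enarodustat, 2.10, 1.83 and 3.29 in ob/ob vehicle and 1.36, 1.49 and 1.23 in WT glomeruli. The difference of ob/ob vehicle from WT was 1.05 ± 0.33 on the log2 scale, and 0.61 without ob/ob vehicle replicate 3, which held the highest value. Rgs4 had -0.79, -0.46 and -1.10 in enarodustat, -0.74, -0.67 and -0.06 in ob/ob vehicle and -1.60, -0.83 and -1.72 in WT glomeruli, a log2 difference of 0.89 ± 0.29. For both genes the ob/ob vehicle arrays lay above all WT arrays. The enarodustat arrays lay above all WT arrays for Rgs5 and overlapped them for Rgs4.

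The mesangial and pericyte markers, 12 of 12 measured, summed to 282, 243 and 317 in enarodustat, 339, 326 and 233 in ob/ob vehicle and 258, 263 and 152 in WT arrays. Ob/ob vehicle replicate 3, the highest array for Rgs5, had the lowest of these sums among the ob/ob arrays. Of the 12 markers, 2 were called higher in ob/ob vehicle than in WT and none lower (4.88% and 2.66% of features). Their median log2 difference was 0.49, against 0.02 over all features. Their part in the Rgs4 and Rgs5 values was not tested.

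Rgs16, an R4 member that acts on Gαi and Gαq, had relative levels of -4.40, -2.97 and -2.51 in enarodustat, -2.94, -2.86 and -3.14 in ob/ob vehicle and -4.07, -3.03 and -3.76 in WT glomeruli. The groups overlapped, and the log2 difference of ob/ob vehicle from WT was 0.64 ± 0.45. Enarodustat replicate 1 held the lowest of the 9 values. Rgs3, a larger R4 gene with several transcripts, was the member below 0. Its levels were 4.74, 4.67 and 4.86 in enarodustat, 4.59, 5.07 and 4.85 in ob/ob vehicle and 5.14, 4.97 and 4.87 in WT glomeruli, a log2 difference of -0.16 ± 0.14 between ob/ob vehicle and WT.

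The 5 probes of Rgs3 differed. The probe of its printed sequence gave 0.20, -0.59 and 0.24 in enarodustat, -0.23, 0.30 and -0.24 in ob/ob vehicle and 0.45, 0.40 and 0.61 in WT glomeruli, with all ob/ob arrays below all WT arrays and a log2 difference of -0.55 between ob/ob vehicle and WT. The most upstream probe, at chr4:62320777-62320836, had a difference of 0.19, and the other probes lay between -0.17 and -0.09. A dim probe at chr4:62358833-62358892 passed the background test on all enarodustat arrays but only 1 ob/ob vehicle array, with -2.21 on enarodustat replicate 2 against -4.32 and -4.35 on the other enarodustat arrays.

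Rgs7, an R7 member best known from neurons, had relative levels of -2.60, -3.17 and -3.29 in enarodustat, -3.60, -2.85 and -2.39 in ob/ob vehicle and -4.08, -4.09 and -3.52 in WT glomeruli. All enarodustat arrays lay above all WT arrays, whereas ob/ob vehicle replicate 1 lay just below WT replicate 3. The ob/ob vehicle minus WT log2 difference was 0.95 ± 0.32. Its other 2 probes were well above background on no array. Of its partners, Gnb5, which encodes Gβ5, had a difference of 0.47 ± 0.18, and Rgs7bp, which anchors R7 proteins at the membrane, 0.59 ± 0.18. Neither partner was called (adjusted p = 0.163 and 0.0842 by limma), and Rgs9bp, Gpr158 and Gpr179 did not pass the filter.

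Rgs10, an R12 member of microglia, macrophages and platelets, had relative levels of -0.20, -0.64 and -0.54 in enarodustat, 0.56, -0.61 and -0.37 in ob/ob vehicle and -0.76, -0.56 and -1.07 in WT glomeruli. Ob/ob vehicle replicate 1 stood above the other arrays, and the log2 difference of ob/ob vehicle from WT was 0.65 ± 0.29, or 0.30 without it. The printed Rgs10 probe gave -1.21, -1.82 and -1.55 in enarodustat, -0.49, -1.74 and -1.49 in ob/ob vehicle and -1.78, -1.82 and -2.45 in WT glomeruli, a log2 difference of 0.78. On both probes ob/ob vehicle replicate 1 was the highest of the 9 arrays. A probe at chr7:135546517-135546576 was well above background on no array.

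Rgs19, an RZ member also known as GAIP that acts on Gαi, had relative levels of 1.03, 0.93 and 0.84 in enarodustat, 1.18, 1.24 and 1.20 in ob/ob vehicle and 0.72, 0.58 and 0.48 in WT glomeruli. The groups did not overlap, with the enarodustat arrays between the others. The ob/ob vehicle minus WT log2 difference was 0.61 ± 0.11, a 1.53-fold difference. The other Rgs19 probes had differences of 0.56 and 0.44. On both, the enarodustat and ob/ob vehicle arrays overlapped, and on the latter so did the ob/ob vehicle and WT arrays. On the probe at chr2:181423447-181423506 the levels were -0.23, -0.38 and -0.37 in enarodustat, -0.11, -0.10 and -0.24 in ob/ob vehicle and -0.50, -0.83 and -0.80 in WT glomeruli.

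**Figure D2:**
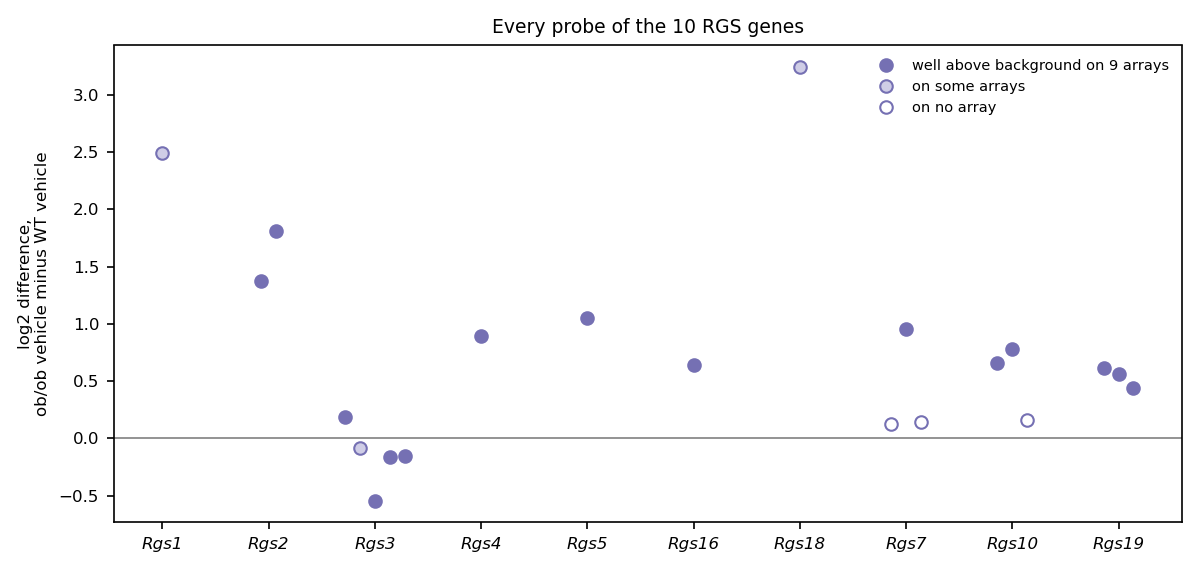
Log2 difference of ob/ob vehicle minus WT vehicle (vertical axis) for each of the 21 probes of the 10 RGS genes (horizontal axis), 1 point per probe; the fill shows on how many arrays the probe was well above background. The Rgs3 probes lie on both sides of 0, from -0.55 to 0.19, and the 3 Rgs19 probes between 0.44 and 0.61.

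Enarodustat minus ob/ob vehicle is the comparison that the choice of genes did not use directly, although it shares the ob/ob vehicle arrays with the comparison that did. By limma, none of the 10 genes was called at an adjusted p under 0.05, as 0% of all features were, while 1695 features (7.02%) had an unadjusted p under 0.05. Of the 10 genes, 9 had a difference below 0, against 55.3% of features, with a median of -0.28 against -0.03 over all features. Since the ob/ob vehicle arrays also entered the choice, the sign count is a description.

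Rgs19 was the only member with an unadjusted p under 0.05, in either direction (7.02% of features). Its difference was -0.27 ± 0.11, or 0.829-fold, with a 95% interval of -0.52 to -0.03 (adjusted p = 0.707, limma). On the main probes it was also the only member whose enarodustat arrays all lay below the ob/ob vehicle arrays, which held for 9.49% of features. The other Rgs19 probes had differences of -0.17 and -0.10, and on both these groups overlapped. On the other Rgs2 probe the enarodustat arrays all lay below the ob/ob vehicle arrays, with a difference of -0.90.

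Rgs18 had a difference of -1.11 ± 0.53, with a 95% interval of -2.32 to 0.09 (adjusted p = 0.715, limma). Rgs1 had -0.87 ± 0.46, with an interval of -1.91 to 0.17 (adjusted p = 0.738, limma). For both genes the enarodustat and ob/ob vehicle arrays overlapped. The differences of the other 7 members ran from -0.32 for Rgs10 to 0.05 for Rgs5, with adjusted p-values between 0.817 and 0.983. The interval was -0.94 to 0.53 for Rgs2, -0.71 to 0.81 for Rgs5 and -0.41 to 0.25 for Rgs3. Rgs16 had the widest of these 7 intervals, -1.35 to 0.73, and its difference turned to 0.24 without enarodustat replicate 1.

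**Figure D3:**
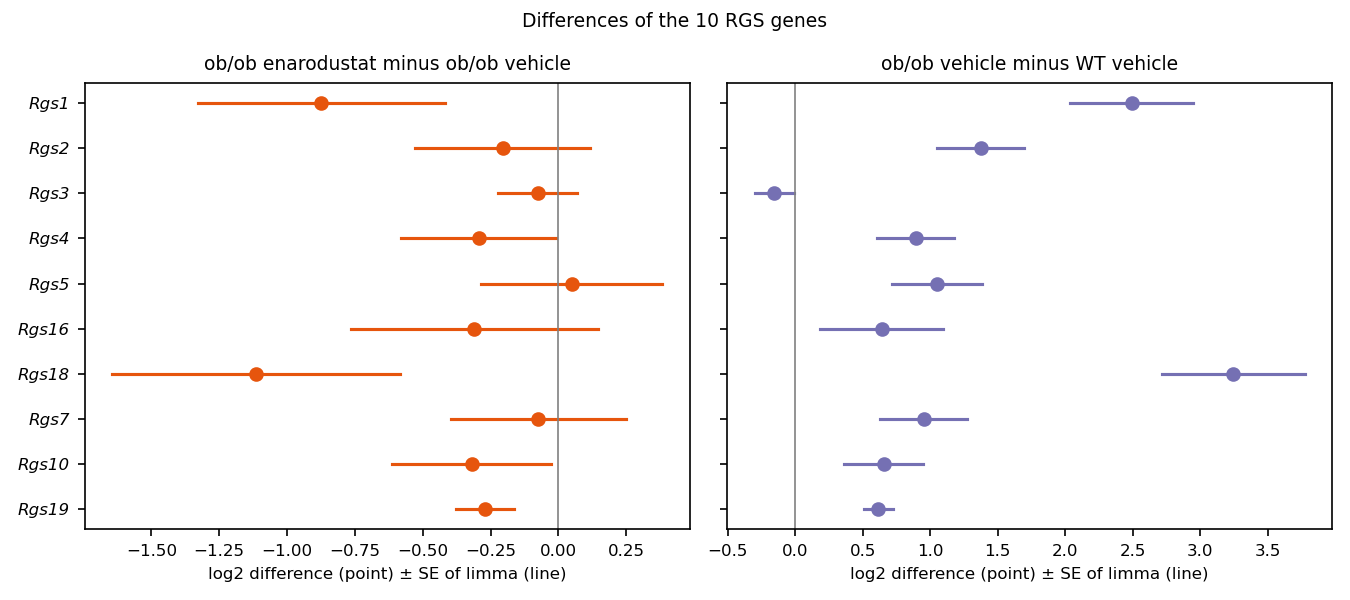
Log2 differences of the 10 RGS genes (points, horizontal axis) with ± SE of the limma fit (lines), for enarodustat minus ob/ob vehicle on the left and ob/ob vehicle minus WT vehicle on the right. On the left the values run from -1.11 for Rgs18 to 0.05 for Rgs5, and on the right from -0.16 for Rgs3 to 3.24 for Rgs18, whose probe, like that of Rgs1, was near background in WT.

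Enarodustat glomeruli were also set beside WT glomeruli, a comparison that shares the WT arrays with the one that chose the genes and is given as values. Rgs1 has only the bound given above. The log2 differences of the others were 2.13 for Rgs18, 1.17 for Rgs2, 1.097 for Rgs5, 0.88 for Rgs7, 0.60 for Rgs4, 0.34 for Rgs19, 0.33 for Rgs10 and Rgs16 and -0.23 for Rgs3. All enarodustat arrays lay above all WT arrays for 6 of the 10 genes, against 16.9% of features, and below them for Rgs3, against 14% of features.

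Of the other 11 RGS genes on the array, 9 passed the filter, and Rgs8 and Rgs22 did not. They belong to the family picked on the ob/ob difference, so that contrast is again given as values. Their median log2 difference of ob/ob vehicle from WT was 0.27, and 8 of the 9 lay above 0 (52.2% of features). Rgs9, an R7 member known from photoreceptors and striatum, had levels of -1.09, -0.86 and -1.13 in enarodustat, -1.20, -1.13 and -1.67 in ob/ob vehicle and -2.48, -2.67 and -3.04 in WT glomeruli, a difference of 1.40 ± 0.19. Its probe at chr11:109096382-109096441 went the other way, with a difference of -0.42. Rgs12, a large R12 member, had a difference of 0.55 ± 0.13. Its other probes that passed the filter, at chr5:35374884-35374943 and chr5:35309330-35309389, had differences of 0.38 and 0.03.

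Rgs13, an R4 member of B cells and mast cells, had a difference of 0.86 ± 0.30, and its probe was well above background on 5 arrays. These were 3 of ob/ob vehicle, 1 of enarodustat and 1 of WT, so it passed the filter through ob/ob vehicle. With normexp correction the Rgs13 difference was 0.10. Rgs11, Rgs17, Rgs14, Rgs21 and Rgs20 had differences of 0.33, 0.27, 0.25, 0.18 and 0.05, and Rgs6 had -0.38. For these 6 genes the ob/ob vehicle and WT arrays overlapped on the brightest probe. Another Rgs20 probe, at chr1:5008743-5008802, separated these groups, with a difference of 0.77. Its levels were -2.59, -2.20 and -2.05 in ob/ob vehicle and -2.92, -3.15 and -3.09 in WT glomeruli.

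Between enarodustat and ob/ob vehicle none of the other RGS genes was called, and 3 had an unadjusted p under 0.05 (Rgs11, Rgs6 and Rgs21; 7.02% of features). Rgs11, an R7 member of retinal bipolar cells, had relative levels of 1.39, 2.95 and 1.93 in enarodustat, -1.01, -0.22 and 0.04 in ob/ob vehicle and -1.45, -0.98 and 0.25 in WT glomeruli. All enarodustat arrays lay above all others, and above all ob/ob vehicle arrays for 6.51% of features. The difference was 2.48 ± 0.52, or 5.59-fold, with a 95% interval of 1.29 to 3.67 (adjusted p = 0.520, limma). The 10 distal nephron markers summed to 72.1, 136 and 101 in enarodustat, 5.26, 30.8 and 29.9 in ob/ob vehicle and 8.55, 16.1 and 102.7 in WT arrays. Rgs11 and these sums had the same order of arrays within the enarodustat and the WT groups. In ob/ob vehicle replicate 1 was lowest in both, but replicates 2 and 3 had opposite orders. WT replicate 3 had a sum of 102.7 and enarodustat replicate 3 one of 101, with Rgs11 at 0.25 and 1.93. The part of these markers in the Rgs11 values was not tested.

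Rgs6, another R7 member, had levels of -0.74, -2.93 and -3.76 in enarodustat, -4.69, -4.24 and -3.58 in ob/ob vehicle and -3.74, -4.06 and -3.58 in WT glomeruli. The difference of 1.70 ± 0.67 (adjusted p = 0.707, limma) became 0.83 without enarodustat replicate 1, and the other 3 Rgs6 probes had differences of 0.42 to 0.50. Rgs21, an R4-like gene known from taste cells, had a difference of -0.53 ± 0.17 (adjusted p = 0.707, limma), with all enarodustat arrays below all ob/ob vehicle arrays.

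Of the 21 RGS genes on the array, 11 lie on chromosome 1, and 7 of the 10 members are among them. In mm9 probe coordinates, Rgs2, Rgs13, Rgs1, Rgs21 and Rgs18 follow each other on the minus strand within 751 kb. Along this stretch the ob/ob vehicle minus WT log2 differences were 1.37, 0.86, 2.49, 0.18 and 3.24, with those of Rgs13, Rgs1 and Rgs18 limited as said above. Rgs21, between Rgs1 and Rgs18, had the smallest difference of the 5. With normexp correction the differences of Rgs13 and Rgs21 were close, at 0.10 and 0.08.

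Promoters of 8 members were in the RefSeq table of build GRCm38.p6, as 11 windows of 250 bases before to 50 after a start; Rgs1 and Rgs18 were not in it. The CCAAT box (CCAAT or, on the other strand, ATTGG) was found in 4 of the 11 windows, those of Rgs2, Rgs4, Rgs5 and Rgs16, where 37.4% of 32851 promoters hold it. The core of the HIF response element (ACGTG or CACGT) was found in 2 of the 11 windows, of Rgs7 and Rgs19, against 19.6% of promoters. The TATA box (TATAAA or TTTATA) was found in 3 of the 11, of Rgs3 and Rgs4, against 13.6%. The cAMP response element (TGACGTCA) was found in none, against 1.79%. A match is a description of the letters. The windows of the neighbours Rgs4 and Rgs5 and of Rgs2 are shown because these genes share the CCAAT letters, in capitals, which begin 57, 67 and 94 bases before the start.
Rgs2, chr1:144004100-144004399, minus strand: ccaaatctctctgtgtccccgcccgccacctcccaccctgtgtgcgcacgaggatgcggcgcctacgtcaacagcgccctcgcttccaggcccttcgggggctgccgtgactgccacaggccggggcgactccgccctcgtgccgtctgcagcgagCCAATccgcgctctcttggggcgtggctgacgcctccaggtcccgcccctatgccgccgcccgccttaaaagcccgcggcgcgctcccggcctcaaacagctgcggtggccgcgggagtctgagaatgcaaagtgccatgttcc
Rgs4, chr1:169747593-169747892, minus strand: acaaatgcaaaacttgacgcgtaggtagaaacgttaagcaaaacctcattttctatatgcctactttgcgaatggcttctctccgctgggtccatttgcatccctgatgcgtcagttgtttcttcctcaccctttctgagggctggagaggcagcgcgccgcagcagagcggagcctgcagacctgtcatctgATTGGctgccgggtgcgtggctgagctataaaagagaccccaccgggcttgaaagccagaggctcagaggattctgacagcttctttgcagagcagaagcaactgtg
Rgs5, chr1:169655251-169655550, plus strand: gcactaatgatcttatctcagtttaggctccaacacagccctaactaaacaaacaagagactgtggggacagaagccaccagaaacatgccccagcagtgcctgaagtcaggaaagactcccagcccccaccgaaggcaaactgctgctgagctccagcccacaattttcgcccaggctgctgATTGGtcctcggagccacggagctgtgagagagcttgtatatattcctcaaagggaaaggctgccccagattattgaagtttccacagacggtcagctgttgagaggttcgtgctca

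For members whose levels spanned more than 2 log2 units over the 9 arrays, the most similar named genes were taken as those with the smallest root mean square difference of mean-centred log2 values, among 15354 candidates. For Rgs1 these were Ms4a6d, Bcl2a1d and Pira2, at 0.324, 0.341 and 0.344. For Rgs2 they were Camkk1, Pla2g7 and Mbnl3, at 0.149, 0.174 and 0.202. For Rgs5 they were Wdr92, Sema6b and Mt2, at 0.175, 0.184 and 0.204. For Rgs18 they were Ptprq, Gpr65 and Inhba, at 0.466, 0.512 and 0.531. This likeness is a description over 9 arrays in 3 groups. For Rgs1 and Rgs18 it includes WT signals that were not well above background.

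The genes that RGS proteins act with were described from lists of 150 genes outside the RGS family, of which 123 passed the filter: the partners of R7 proteins, proteins with an RGS homology domain, G protein subunits, receptor kinases and arrestins, effectors and receptors. By limma with Benjamini-Hochberg adjustment over all features, 21 of the 123 were called higher and 2 lower in ob/ob vehicle than in WT glomeruli (4.88% and 2.66% of features, 7.54% together), and none in either direction between enarodustat and ob/ob vehicle (0% of features), where 9 had an unadjusted p under 0.05 (7.02% of features). The counts of the single lists are read against the same shares. Of the 21, 5 were well above background on no WT array and so passed the filter through the ob/ob arrays, where they are high. Their bounds and adjusted p-values hold for the processed signal and are no independent support.

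Among the 15 Gα genes, which include the targets of RGS proteins, 2 rose in ob/ob vehicle and none fell, with a median log2 difference of 0.18. Gnai1, which encodes an inhibitory subunit, rose by 1.05 ± 0.15 (adjusted p = 0.00603, limma), with levels of 2.87, 2.56 and 2.90 in enarodustat, 3.14, 2.78 and 2.89 in ob/ob vehicle and 2.07, 1.83 and 1.77 in WT glomeruli. Gna13 rose by 0.47 ± 0.12 (adjusted p = 0.0476, limma), and this call held in 5 of 21 alternative analyses. Gnaq, the target of Rgs2, had a difference of 0.42 ± 0.12 (adjusted p = 0.0792, limma) and between enarodustat and ob/ob vehicle one of -0.35 ± 0.12 (adjusted p = 0.707, limma). Of the 13 Gβ and Gγ genes, 2 rose and none fell. Gng2 rose by 1.69 ± 0.12 (adjusted p = 0.000502, limma) and Gng11 by 0.86 ± 0.19 (adjusted p = 0.0317, limma), with the Gng11 call held in 10 of 21 alternative analyses.

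Of the 16 effectors, 3 rose in ob/ob vehicle and none fell. Pik3r5, a regulatory subunit of phosphoinositide 3-kinase γ, was well above background on no WT array and was at least 2.67-fold higher in ob/ob vehicle (adjusted p = 0.00245, limma), with a log2 difference of 0.31 with normexp correction. Adcy7, an adenylyl cyclase, rose by 1.47 ± 0.27 (adjusted p = 0.0150, limma), and Pik3cg, the catalytic subunit of that kinase, by 0.85 ± 0.20 (adjusted p = 0.0413, limma). The Adcy7 call was lost without ob/ob vehicle replicate 1, and that of Pik3cg held in 10 of 21 alternative analyses. None of the 9 receptor kinases and arrestins, 9 RGS homology proteins and 6 other modulators was called between these groups, with medians of 0.28, 0.05 and -0.07. At an unadjusted p under 0.05 the counts were 4, 2 and 1, where 23.5% of features were.

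Of the 37 vasoactive receptors tested, 8 rose and 2 fell, with a median of 0.08. F2r, the thrombin receptor, rose by 1.58 ± 0.19 (adjusted p = 0.00365, limma), with levels of 6.90, 6.41 and 7.03 in enarodustat, 7.07, 7.25 and 7.24 in ob/ob vehicle and 5.89, 5.54 and 5.38 in WT glomeruli. Lpar4, a lysophosphatidic acid receptor, rose by 1.41 ± 0.18 (adjusted p = 0.00405, limma). Bdkrb2, the bradykinin B2 receptor, was well above background on no WT array and was at least 1.36-fold higher (adjusted p = 0.0129, limma), a call lost with normexp correction, where the log2 difference was 0.22. The genes that fell were Adra2c, an α2 adrenergic receptor, with a log2 difference of -2.86 ± 0.45 (adjusted p = 0.00826, limma), and Ptger2, a prostaglandin E2 receptor, with -2.82 ± 0.65 (adjusted p = 0.0367, limma). The Adra2c probe was not well above background on every array, and its log2 difference was -1.33 with normexp correction. Ptger2 lies outside the naming rule and was named after its value was seen. Its call was lost without the filter, with the 2 groups' arrays alone, with slide as a block and without any 1 WT or enarodustat array. Adra2c was the only list gene called lower there.

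Leukocyte receptors had 6 of 16 genes higher in ob/ob vehicle and none lower, with a median of 0.50. C5ar1, the complement C5a receptor, was well above background on no WT array and was at least 2.96-fold higher (adjusted p = 0.00111, limma), with a log2 difference of 0.38 with normexp correction. Fpr1, a formyl peptide receptor, was at least 6.32-fold higher on the same ground (adjusted p = 0.00640, limma), with a log2 difference of 0.75 with normexp correction. Fpr2, another such receptor, rose by 1.87 ± 0.27 (adjusted p = 0.00603, limma). Cx3cr1, the fractalkine receptor, had levels of -0.37, -0.39 and -0.79 in enarodustat, 0.32, 0.15 and -0.24 in ob/ob vehicle and -2.35, -1.37 and -2.07 in WT glomeruli, a rise of 2.01 ± 0.26 (adjusted p = 0.00430, limma). The macrophage sums given with Rgs1 moved with this list, and their part in it was not tested.

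**Figure D4:**
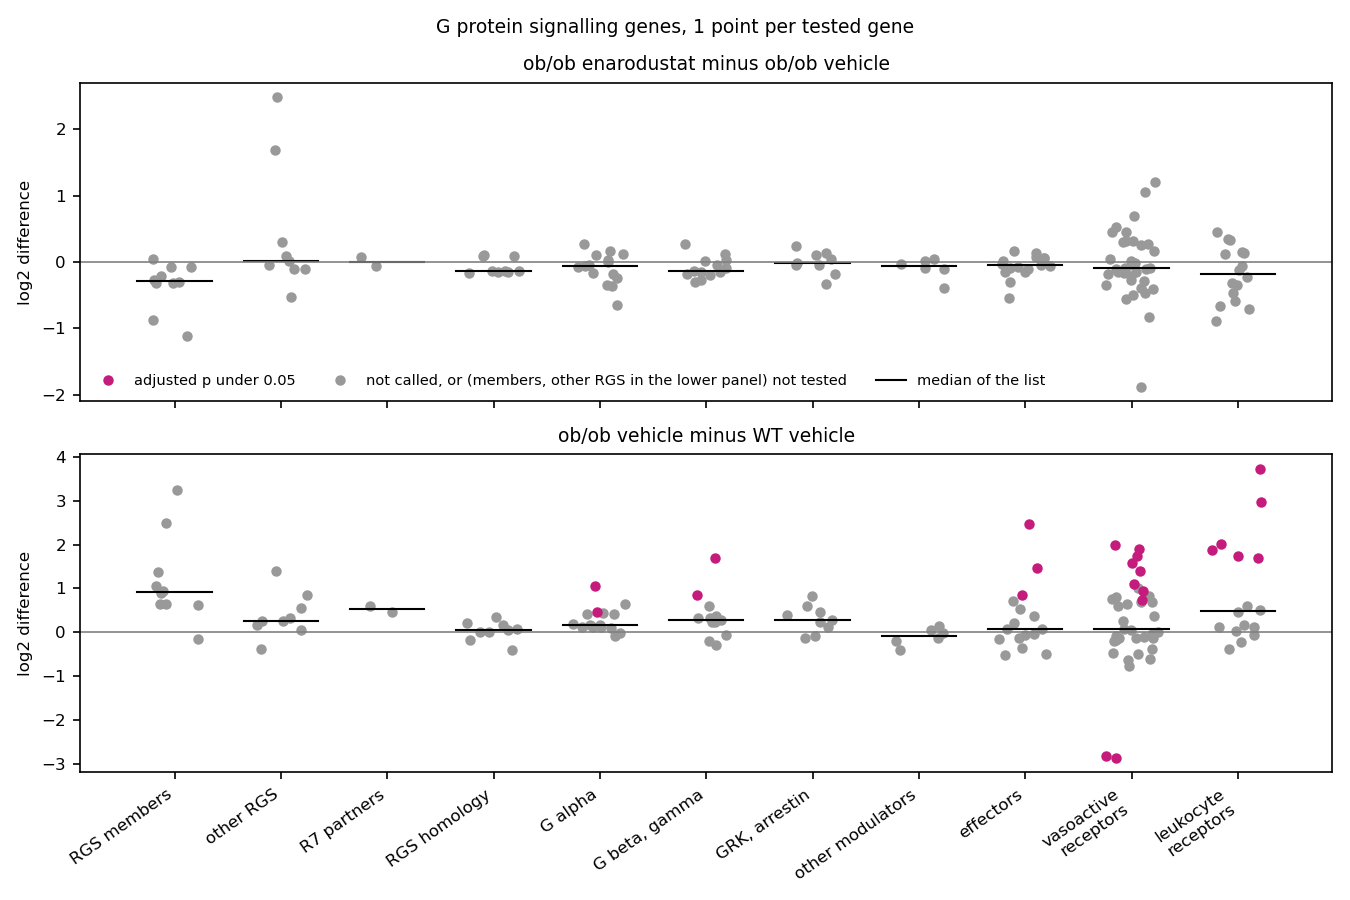
Log2 differences of the RGS members and of the tested genes in 10 lists of G protein signalling, for enarodustat minus ob/ob vehicle (top) and ob/ob vehicle minus WT vehicle (bottom); each point is a gene, coloured where its adjusted p was under 0.05 (the RGS members and other RGS genes are not tested in the bottom panel), and black lines are list medians. No gene is coloured in the top panel, and in the bottom panel 21 coloured genes lie higher and 2 lower.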

How the data were processed

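Per the labels' protocols, Cy3-labelled RNA of 9 glomerular samples was measured on Agilent arrays for mouse genes with 1 colour. Per the file headers, the scans were read by the authors with Feature Extraction, version 11.5.1.1, and the deposited files give each spot's intensity on a linear scale as a background-subtracted processed signal. The authors' deposited value table holds log2 values; each column matched its own array's log2 processed signal minus about its 75th percentile. Its column medians were -3.04, -2.95 and -3.05 in enarodustat, -3.10, -3.06 and -3.06 in ob/ob vehicle and -3.07, -3.03 and -2.93 in WT. The scale, centring and direction were found from the values. The submitters' processing notes also name limma.

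Control spots and outlier spots were left out and spots of a probe averaged, with 32 probes lost. Levels are log2 signal minus each array's 75th percentile. A probe was kept if all arrays of some group had it well above background (36671 probes), and the brightest stood for each gene, giving 24154 features (18298 named). A model of 3 groups was fitted to all 9 arrays with limma 3.58.1 in R 4.3.3 (lmFit, contrasts.fit, eBayes) and tested on simulated data; p-values were adjusted by Benjamini-Hochberg over all features. The number of arrays limits the precision. Figures used matplotlib 3.10.9 in Python 3.11.15. Probe coordinates are mm9, per the file headers; promoters are RefSeq's of GRCm38.p6.

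The members and lists were chosen with earlier results of these data known. RGS genes are described without a test between ob/ob vehicle and WT, and the counts over lists leave them out. The text names all members and their probes and the other RGS genes that passed the filter. From each list it names up to 4 genes called between ob/ob vehicle and WT, smallest p first. List genes called only between enarodustat and WT were not named. Also named were Gnaq and the partners of R7 proteins, outside that rule. The alternatives were other scalings and background corrections, the deposited table, probe filters and summaries, array weights, replicate and slide blocks, the arrays of the compared groups alone, and each array left out.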

Additional observations from a re-analysis of the deposited data

How the results depend on the processing

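Each result was recomputed under up to 21 alternatives. Between enarodustat and ob/ob vehicle no RGS member or other gene of the lists was called under any of them. Members above 0 in ob/ob vehicle minus WT numbered 9 of 10 under every alternative run except that which asked for probes well above background on all arrays and left 7 of 8 (Rgs1 and Rgs18 then drop out). List genes called higher numbered 33 with array weights and 14 to 20 with an array left out (14 without ob/ob vehicle replicate 1), against 21. Those called lower numbered 4 with array weights, 1 without the filter, with the 2 groups' arrays alone or with slide as a block, 0 with probes well above background on all arrays and 1 to 3 with an array left out, against 2. Over all features, 4172 were called between ob/ob vehicle and WT with array weights, 1005 without the filter, 908, 1187 and 1116 without ob/ob vehicle replicate 1, 2 or 3 and 968 and 1175 without WT replicate 2 or 3, against 1821. Normexp correction lowered the ob/ob vehicle minus WT difference to 0.48 for Rgs1, 1.00 for Rgs18, 0.36 for Rgs7, 0.22 for Rgs16 and 0.10 for Rgs13. Signs of small differences turned without a call. In enarodustat minus ob/ob vehicle, Rgs3 was 0.25 with the mean of probes, Rgs5 was -0.0130 and Rgs20 -0.0403 with array median scaling, Rgs7 was 0.0599 with slide as a block, and Rgs20 was -0.15 with the mean of probes and -0.000797 with array weights. With an array left out, the values of the turned genes spanned -0.35 to 0.0310 for Rgs2, -0.20 to 0.0390 for Rgs3, -0.24 to 0.49 for Rgs5, -0.40 to 0.20 for Rgs7, -0.55 to 0.0297 for Rgs10, -0.70 to 0.24 for Rgs16, -0.27 to 0.22 for Rgs17 and -0.0473 to 0.14 for Rgs20. In ob/ob vehicle minus WT, Rgs20 was -0.0189 with quantile normalization and -0.0316 with normexp, and with an array left out Rgs20 spanned -0.10 to 0.22 and Rgs11 -0.0331 to 0.81. Array medians moved the median of all features to 0.08 in this comparison and to -0.09 in the other. The cause of these changes was not tested, beyond the fewer probes or samples that some alternatives hold. Between samples that share a replicate number, correlations of deviations from group means ran from -0.31 to 0.27. With 3 arrays per group these values cannot exclude a pairing, and the main fit used none. With the replicate block, 1407 features were called between ob/ob vehicle and WT against 1821, and 18 list genes were higher against 21. Slide as a block equals leaving out enarodustat replicate 3, alone on its slide, and called 1515. Dim probes such as those of Rgs1 and Rgs18 limit the precision of their folds.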
